A study of Mus musculus with 21 samples.

Results

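The genes described here are 10 members of the BCL2 family, the proteins that decide whether the outer mitochondrial membrane is opened during apoptosis. They were taken as the rows of the raw count table with the symbols *Bcl2a1a*, *Bcl2a1b*, *Bcl2a1d*, *Mcl1*, *Bcl2*, *Bcl2l1*, *Bcl2l11*, *Pmaip1*, *Bbc3* and *Bid*, and all 10 were found among the 23420 symbols of the table. RNA came from sorted inflammatory monocytes (IMs) in 21 libraries. Tumor IMs (TIMs) were taken from LN2E1 primary tumors (n = 5) and LN2E1 lymph node metastases (n = 5) of FVB mice and from the lungs of DBA2 mice with LN4K1 metastases (n = 5), and bone marrow IMs (BM IMs) from naive, non–tumor-bearing FVB (n = 3) and DBA2 (n = 3) mice. LN2E1 (KAL-LN2-E1 in the labels) and LN4K1 are mouse lung squamous carcinoma lines. LN2E1 was placed orthotopically in the lung at 500000 cells per mouse, and LN4K1 was given intravenously at 300000 cells per mouse, so that line, strain, route and tissue changed together between the models and cannot be told apart. Each TIM group also differed from its BM IMs in tissue as well as in the presence of a tumor. The paper's methods describe mincing and enzyme digestion for lung tissue and name no such step for marrow. The part of this handling in the results was not tested. No genetic change of the host or drug is named for any group. The labels do not say whether replicates came from separate mice, and the methods call them technical, so p-values measure the spread between these libraries, which may be technical only.

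The family has a prosurvival branch and a death branch. Prosurvival proteins (BCL2, BCL-XL from *Bcl2l1*, MCL1 and A1 from the *Bcl2a1* genes) bind and hold BAX and BAK, the effectors that form pores. BH3-only proteins (BIM from *Bcl2l11*, NOXA from *Pmaip1*, PUMA from *Bbc3*, and BID) bind the prosurvival proteins or act on BAX and BAK, with NOXA preferring MCL1 and A1 as partners. Monocytes and neutrophils live for a short time, and MCL1 and A1 are known as survival proteins of these cells, both with a fast turnover. Levels of RNA do not give levels of these proteins, several of which are controlled after transcription, BID by cleavage and MCL1 by degradation.

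Total counts per library lay between 80772922 and 101043568. All 8 monocyte markers listed were found in every group, with summed levels between 10687 and 16728 CPM (library-size scaled counts, with TMM factors). Cell cycle genes (8 of 8 found) summed to between 1327 and 1510 CPM in BM IMs and to between 83.5 and 165 CPM in TIMs, and 7 of 8 listed genes of neutrophil precursors summed to between 2811 and 4955 CPM in BM IMs and to between 15.0 and 494 CPM in TIMs. The 8 listed genes of mature neutrophils, cells that also express A1, summed to 2143 to 2643 CPM in FVB BM IMs, 1124 to 2157 in primary tumor TIMs, 666 to 1143 in lymph node TIMs, 1074 to 1448 in DBA2 BM IMs and 1425 to 2220 in LN4K1 lung TIMs. Fibroblast genes summed to between 365 and 1112 CPM in primary tumor TIMs, against at most 87.1 CPM elsewhere. Epithelial genes summed to between 157 and 742 CPM in primary tumor TIMs and to between 6.62 and 133 CPM in LN4K1 lung TIMs, against at most 5.04 CPM elsewhere. Macrophage genes (7 of 8 found) summed to between 1239 and 2412 CPM in BM IMs and to between 2897 and 6082 CPM in TIMs, and the 8 eosinophil genes to between 491 and 1333 CPM and between 18.9 and 90.2 CPM. The 6 genes of the NK cell list summed to between 3.82 and 37.9 CPM in BM IMs and to between 55.3 and 188 CPM in TIMs, most of it *Klrk1*, and the NK cell gene *Ncr1* was at most 3.57 CPM. The B cell gene *Pax5* was at 3 counts or fewer in every library. LN4K1 lung replicate 3 stood apart, with *Csf1r* at 785 CPM against 1420 to 2278 CPM in the other 4 libraries of its group and *Cd209a* at 306 CPM against 49.4 to 139 CPM. The part of these markers in the results below was not tested, and in bulk RNA fewer cells of a type cannot be told apart from less RNA per cell.

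The 3 *Bcl2a1* genes are near copies of each other on chromosome 9, which sets how far their counts can be read apart. In GRCm38, *Bcl2a1d* lies at chr9:88723285-88731914 on the minus strand, *Bcl2a1a* at chr9:88956900-88962419 and *Bcl2a1b* at chr9:89199209-89207827 on the plus strand. Their coding sequences are 516 bases long. *Bcl2a1a* and *Bcl2a1b* differ at 11 bases (97.9% identity), *Bcl2a1a* and *Bcl2a1d* at 7 (98.6%), and *Bcl2a1b* and *Bcl2a1d* at 6 (98.8%). Of the 12 coding positions at which the 3 are not all alike, 7 fall in the first 120 coding bases. These bases lie in 1 exon and are shown because they hold most of the letters that separate the genes. They are given 5′ to 3′ from the start codon, from GENCODE vM21 transcripts, with the positions that vary in capitals, at chr9:88957051-88957170, chr9:89199360-89199479 and chr9:88731600-88731719.
Bcl2a1a: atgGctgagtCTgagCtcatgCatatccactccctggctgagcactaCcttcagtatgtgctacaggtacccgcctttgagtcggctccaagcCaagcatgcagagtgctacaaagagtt
Bcl2a1b: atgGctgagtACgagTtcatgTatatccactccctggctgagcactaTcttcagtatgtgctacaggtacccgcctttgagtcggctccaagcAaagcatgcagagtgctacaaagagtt
Bcl2a1d: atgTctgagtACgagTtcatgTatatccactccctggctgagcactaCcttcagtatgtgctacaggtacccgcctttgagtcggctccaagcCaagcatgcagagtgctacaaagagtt

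Between the variable positions lie runs longer than 40 bases that are the same in all 3 genes. Of all windows of 50 bases in the longest transcript, 69.0% in *Bcl2a1a*, 79.2% in *Bcl2a1b* and 79.5% in *Bcl2a1d* were also present in another gene's transcript, and 43.5%, 56.8% and 54.7% of windows of 100 bases. How reads with several hits were counted is not given in the sources used here, so the split of reads among the 3 genes is uncertain and their sum is given beside each result. *Bcl2a1b* also shares 401 exon bases on its own strand with the annotated gene *Gm29094*, whose symbol is not in the count table. *Mcl1*, *Bcl2l1*, *Pmaip1* and *Bbc3* shared no such window of 50 bases with another gene, *Bcl2l11* 0.221% and *Bcl2* 6.75%. *Bid* shared 24.5%, through an overlap of 628 exon bases with *Bcl2l13* on the opposite strand, and the libraries carried no strand.

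The 3 genes are alike upstream as well. Promoters (250 bases before to 50 after a start) were taken from RefSeq for GRCm38.p6 and matched 9 of the 10 members, all but *Pmaip1*. The 50 bases below are shown because the counts of the 3 genes moved together. The part of shared reads in this was not tested. They begin at the match to an AP-1 element (TGANTCA) and also hold a match to an ETS or PU.1 element (GAGGAAGT), both in capitals, at chr9:88956800-88956849 (plus strand), chr9:89199109-89199158 (plus strand) and chr9:88731915-88731964 (minus strand).
Bcl2a1a: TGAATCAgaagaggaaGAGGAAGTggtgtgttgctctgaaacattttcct
Bcl2a1b: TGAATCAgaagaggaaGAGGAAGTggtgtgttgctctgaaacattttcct
Bcl2a1d: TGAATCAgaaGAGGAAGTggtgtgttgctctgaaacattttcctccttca

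The stretches of *Bcl2a1a* and *Bcl2a1b* are the same letter for letter, and that of *Bcl2a1d* lacks 6 bases between the matches. They start 120, 164 and 114 bases before the RefSeq start of the gene. Motifs were searched on both strands and the matches in capitals do not overlap. Of 32851 promoters, 7.81% held TGANTCA and 3.20% held GAGGAAGT. A composite C/EBP-ATF element (TGATGCAA), held by 0.895% of promoters, was found in all 4 *Bcl2a1* promoters, *Bcl2a1c* included. An NF-kB element (GGGANNNNCC, 20.7% of promoters) matched in *Bcl2a1b* but not in *Bcl2a1a* or *Bcl2a1d*, and among the other members in *Bcl2l11* and *Bbc3*. A FOXO element (GTAAACA, 3.65%) matched in *Bcl2l11* and *Bbc3*, and a GC box (GGGCGG, 35.7%) in the 3 *Bcl2a1* genes, *Bcl2*, *Bcl2l11*, *Mcl1*, *Bid* and *Bbc3*. The shares are per promoter, and *Bcl2l11* and *Bbc3* have alternative promoters, which gives these genes more places for a match. In both genes the NF-kB and FOXO matches lay in different promoters. A cyclic AMP element (TGACGTCA, 1.79%) and a STAT element (TTCNNNGAA, 8.30%) matched in no member's promoter. A match is a description of the letters only, and no match says only that the letters are not in this window.

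Of the 10 members, 9 changed in LN2E1 primary tumor TIMs against FVB BM IMs (edgeR's quasi-likelihood test, Benjamini-Hochberg adjusted p under 0.05), 8 higher and 1 lower. Of all 14569 genes tested, 61.9% passed, 33.3% higher and 28.6% lower, so that a call in this comparison was common. Their median log2 fold change was 1.54, against 0.08 over all genes. In lymph node TIMs, 9 members changed, again 8 higher and 1 lower, where 37.4% of 13273 genes did, 20.2% higher and 17.2% lower. The members' median was 1.92 and that of all genes -0.04. In LN4K1 lung TIMs against DBA2 BM IMs, 7 members changed, 6 higher and 1 lower, where 24.9% of 13624 genes did, 13.9% higher and 11.0% lower, with medians of 1.16 and 0.03. At the study's thresholds for a DEG (adjusted p under 0.0001 and absolute log2 fold change above 1), 6 members passed in primary tumors, 6 in lymph nodes and 1 in LN4K1 lung, where 12.9%, 5.71% and 2.97% of genes did. These numbers are from edgeR's fits, whereas the study applied its thresholds to DESeq2 results with shrunken log2 fold changes. With DESeq2 and such shrinkage, 8, 7 and 4 members passed in that order. So did 4004 of 16675, 2402 of 14062 and 1565 of 14668 genes. TIM and BM IM libraries did not overlap for 9, 8 and 7 members, against 58.1%, 42.9% and 34.8% of genes. The 3 *Bcl2a1* genes, whose reads cannot be split with certainty, enter these counts and medians as 3 members. With the *Bcl2a1* paralogs summed into 1 gene, 7 passed in primary tumors, 7 in lymph nodes and 5 in LN4K1 lung. At the DEG thresholds these numbers were 4, 4 and 1. The primary tumor and lymph node comparisons share the FVB BM IM libraries. *Bid* was the member that fell in all 3, and *Bcl2a1a*, *Bcl2a1b*, *Bcl2a1d*, *Bcl2l11* and *Pmaip1* rose in all 3. The members' DEG count in LN4K1 lung TIMs depended on single libraries and on the tool, as did that of all genes. It was 0 when DBA2 BM IM replicate 1, 2 or 3 was left out, 3 without LN4K1 lung replicate 3, and 4 with DESeq2. DEGs among all genes went from 405 of 13624 to 132 of 14100, 133 of 14121 and 115 of 14117 without these DBA2 libraries. They numbered 840 of 13592 without LN4K1 lung replicate 3 and 1565 of 14668 with DESeq2. In lymph node TIMs the members' DEG count was 1 without FVB BM IM replicate 1 or 2 or lymph node replicate 2 or 5. It was 3 without FVB BM IM replicate 3 or lymph node replicate 3, and between 4 and 8 without lymph node replicate 1 or 4. Of all 13273 genes, 758 were DEGs with all libraries. The number was 977 without lymph node replicate 1 and between 307 and 463 without any other library.

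**Figure D1:**
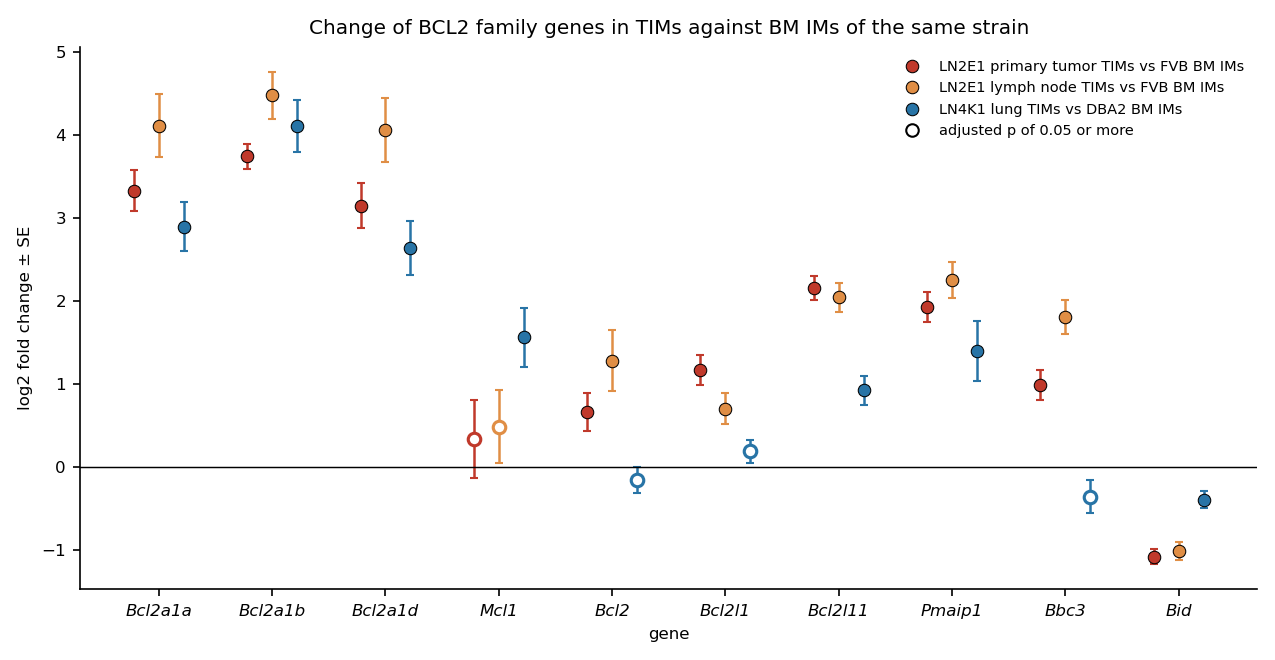
Log2 fold change with its standard error (vertical axis) of each of the 10 members (horizontal axis) in TIMs against BM IMs of the same strain, from edgeR's quasi-likelihood fits of 5 against 3 libraries. Filled points have an adjusted p under 0.05 and open points do not. The 3 Bcl2a1 genes lie highest, between 2.64 and 4.47, and Bid lies below 0 in all 3 comparisons.

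*Bcl2a1b*, which had the largest changes, stood at 2.03, 2.24 and 2.30 CPM in the FVB BM IM libraries and at 2.97, 2.75 and 3.41 CPM in the DBA2 BM IM libraries. It stood at 31.8, 29.4, 27.0, 25.9 and 34.6 CPM in primary tumor TIMs, at 41.4, 53.7, 68.0, 33.3 and 47.1 CPM in lymph node TIMs and at 44.7, 36.5, 84.6, 62.8 and 47.6 CPM in LN4K1 lung TIMs. Every TIM library thus lay above every BM IM library of either strain, and the groups were far apart. The rise was 13.3-fold in primary tumors (log2 fold change 3.74 ± 0.15 SE, adjusted p = 1.59e-07), 22.2-fold in lymph nodes (4.47 ± 0.29, adjusted p = 2.68e-06) and 17.2-fold in LN4K1 lung (4.10 ± 0.31, adjusted p = 1.8e-05). *Bcl2a1a* was between 1.04 and 1.76 CPM in FVB BM IMs, 3.08 and 3.74 in DBA2 BM IMs, 12.2 and 18.4 in primary tumors, 15.5 and 38.3 in lymph nodes, and 18.1 and 42.1 in LN4K1 lung. It rose 10.0-fold, 17.2-fold and 7.44-fold in the 3 TIM groups in that order. *Bcl2a1d* was between 1.09 and 2.23 CPM in FVB BM IMs, 3.13 and 4.01 in DBA2 BM IMs, 12.8 and 18.6 in primary tumors, 18.2 and 40.2 in lymph nodes, and 16.1 and 38.4 in LN4K1 lung, with rises of 8.85-fold, 16.6-fold and 6.21-fold. All 9 of these calls remained below an adjusted p of 0.05 whichever library was left out.

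The sum over the paralogs does not depend on how shared reads were split among them. It would still change if such reads were dropped or counted more than once, which is not given. Summed in this way, the *Bcl2a1* reads stood at 5.69, 6.24 and 4.43 CPM in FVB BM IMs and at 10.4, 10.1 and 9.62 CPM in DBA2 BM IMs. They stood at 68.6, 60.1, 52.0, 52.4 and 70.8 CPM in primary tumors, at 96.5, 116, 147, 67.3 and 92.7 CPM in lymph nodes and at 88.1, 70.9, 165, 115 and 86.7 CPM in LN4K1 lung. The sum rose 11.0-fold in primary tumors (3.46 ± 0.17, adjusted p = 4.07e-07), 19.1-fold in lymph nodes (4.26 ± 0.29, adjusted p = 3.8e-06) and 9.95-fold in LN4K1 lung (3.31 ± 0.29, adjusted p = 4.22e-05). The share of *Bcl2a1a*, *Bcl2a1b* and *Bcl2a1d* reads that was counted on *Bcl2a1b* was between 27.3% and 35.5% in DBA2 BM IMs and between 50.8% and 55.0% in LN4K1 lung, with no overlap. In FVB BM IMs it was 35.7%, 35.9% and 51.9%, which overlapped the 46.4% to 51.9% of primary tumors and the 42.9% to 50.9% of lymph nodes. These shares describe the counts, and whether they follow the transcripts or the counting of shared reads was not tested. The libraries with the highest sums, lymph node replicate 3 and LN4K1 lung replicate 3, were also those with the highest sums of 7 dendritic cell genes in their groups, 612 and 347 CPM. In primary tumors this was not so. There the dendritic cell list was highest in replicate 4 (322 CPM), with *Bcl2a1* reads at 52.4 CPM. The *Bcl2a1* reads were highest in replicate 5 (70.8 CPM), with the list at 237 CPM. That list summed to between 86.3 and 612 CPM in lymph nodes, 129 and 347 in LN4K1 lung, 162 and 322 in primary tumors, 78.5 and 89.4 in FVB BM IMs and 93.3 and 109 in DBA2 BM IMs. *Siglech*, a gene of plasmacytoid dendritic cells on that list, was 328, 245, 477, 131 and 37.1 CPM in the 5 lymph node libraries and only 4.34 CPM in LN4K1 lung replicate 3. Its part in the *Bcl2a1* levels was not tested.

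**Figure D2:**
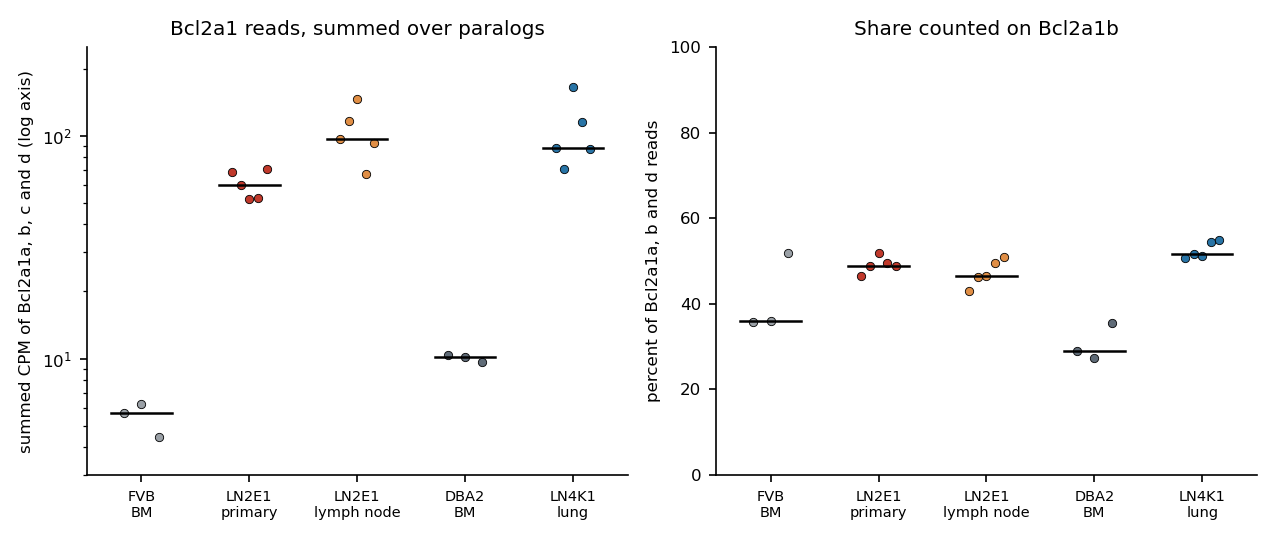
Summed CPM of Bcl2a1a, Bcl2a1b, Bcl2a1c and Bcl2a1d on a log axis (left) and the percentage of Bcl2a1a, Bcl2a1b and Bcl2a1d reads counted on Bcl2a1b (right), with 1 point per library and a line at the median of each of the 5 groups. The sums are between 4.43 and 10.4 CPM in BM IMs and between 52.0 and 165 CPM in TIMs, and the share on Bcl2a1b is lowest in DBA2 BM IMs.

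*Mcl1* (chr3:95658788-95663176) varied widely between libraries of one group, most in FVB BM IMs. It stood at 624, 258 and 122 CPM in FVB BM IMs, a span that took in every lymph node and primary tumor library but 2. It stood at 261, 484, 344, 375 and 666 CPM in primary tumors and at 698, 412, 317, 423 and 485 CPM in lymph nodes, with log2 fold changes of 0.34 ± 0.47 (adjusted p = 0.560) and 0.49 ± 0.44 (adjusted p = 0.437) that did not pass. Without FVB BM IM replicate 1 they were 1.17 and 1.29 and passed (adjusted p = 0.0491 and 0.0274), and without FVB BM IM replicate 3 the value for primary tumors was -0.056. In DBA2 mice the BM IM libraries were at 129, 128 and 185 CPM and the LN4K1 lung libraries at 321, 252, 759, 386 and 575 CPM. These groups did not overlap, and *Mcl1* rose 2.95-fold (1.56 ± 0.35, adjusted p = 0.0108), a call that was lost without DBA2 BM IM replicate 1 (adjusted p = 0.0526) or 2 (0.0562).

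*Bcl2* (chr1:106538178-106714274), the founding member, stood at 17.1, 16.1 and 17.8 CPM in FVB BM IMs, at 41.9, 29.1, 22.6, 20.1 and 23.0 CPM in primary tumors and at 14.7, 54.0, 44.3, 52.2 and 41.1 CPM in lymph nodes. It rose 1.59-fold in primary tumors (0.66 ± 0.23, adjusted p = 0.0293) and 2.43-fold in lymph nodes (1.28 ± 0.37, adjusted p = 0.0203), where replicate 1 lay below the BM IMs and the other 4 libraries well above them. The primary tumor call was lost without FVB BM IM replicate 1 or 2 or primary tumor replicate 2 (adjusted p = 0.0625, 0.0768 and 0.0548) and with all 5 groups in 1 fit (0.0686). The lymph node call was lost without FVB BM IM replicate 1, 2 or 3 (0.0690, 0.0773 and 0.0507). DBA2 BM IMs already stood at 31.3, 35.3 and 29.7 CPM and LN4K1 lung TIMs at 27.0, 26.5, 35.8, 36.2 and 26.4 CPM, with a difference of -0.16 ± 0.16 (adjusted p = 0.530).

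*Bcl2l1* (chr2:152780668-152831728) was at 21.8, 25.8 and 28.0 CPM in FVB BM IMs and at 56.4, 51.3, 77.4, 56.0 and 45.6 CPM in primary tumors, a 2.24-fold rise without overlap (1.17 ± 0.18, adjusted p = 0.00042). In lymph nodes it was at 37.7, 45.4, 31.0, 41.6 and 49.0 CPM, a 1.62-fold rise (0.70 ± 0.19, adjusted p = 0.0146) that was lost without FVB BM IM replicate 1 (0.0777) or 2 (0.0577). In DBA2 mice it was at 32.1, 30.7 and 31.2 CPM in BM IMs and at 41.9, 38.4, 29.9, 40.9 and 37.2 CPM in LN4K1 lung, with a difference of 0.19 ± 0.14 (adjusted p = 0.365). Among prosurvival members, then, the *Bcl2a1* genes changed most, and the others passed in some TIM groups only.

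**Figure D3:**
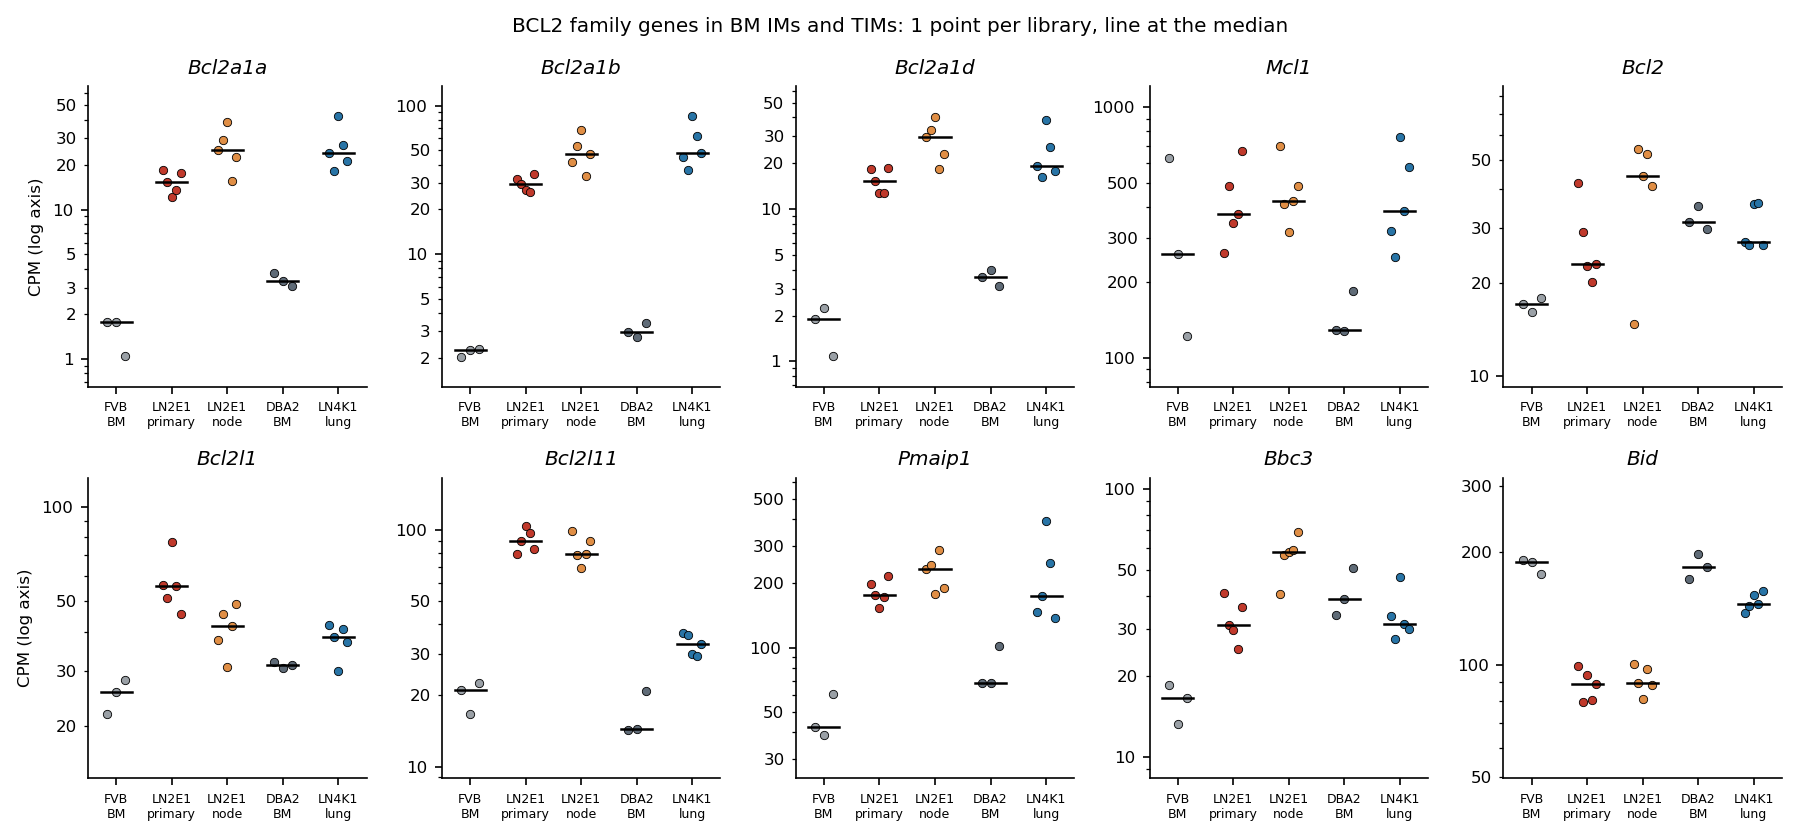
CPM of each of the 10 members on log axes whose ranges differ between panels (vertical) in the 5 groups (horizontal; node stands for lymph node metastases), with 1 point per library and a line at the group's median. Every TIM library lies above every BM IM library for the 3 Bcl2a1 genes, Bcl2l11 and Pmaip1 and below every one for Bid, while Mcl1 in FVB BM IMs spans 122 to 624 CPM.

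Among BH3-only genes, *Bcl2l11* (chr2:128126038-128162547), which encodes BIM, rose in all TIM groups, and less in LN4K1 lung than in the LN2E1 sites. It was at 21.01, 16.7 and 22.7 CPM in FVB BM IMs and at 14.3, 14.4 and 20.8 CPM in DBA2 BM IMs. It was at 79.6, 90.2, 104, 97.4 and 83.0 CPM in primary tumors, at 98.7, 78.1, 69.2, 79.0 and 89.6 CPM in lymph nodes, and at 36.6, 35.9, 30.0, 29.4 and 33.1 CPM in LN4K1 lung. The LN4K1 lung libraries lay between the BM IMs and the LN2E1 TIMs, with no overlap on either side. The rise was 4.45-fold in primary tumors (2.15 ± 0.15, adjusted p = 2.36e-06), 4.12-fold in lymph nodes (2.04 ± 0.18, adjusted p = 1.88e-05) and 1.90-fold in LN4K1 lung (0.92 ± 0.17, adjusted p = 0.00411). These 3 calls held whichever library was left out.

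*Pmaip1*, on chromosome 18, encodes NOXA. It was at 42.6, 39.0 and 60.9 CPM in FVB BM IMs, at 198, 176, 154, 173 and 217 CPM in primary tumors and at 233, 244, 178, 286 and 189 CPM in lymph nodes, which gave rises of 3.79-fold (1.92 ± 0.18, adjusted p = 1.58e-05) and 4.75-fold (2.25 ± 0.22, adjusted p = 3.85e-05). It was at 68.3, 68.1 and 101.4 CPM in DBA2 BM IMs and at 146, 175, 393, 249 and 138 CPM in LN4K1 lung, a 2.63-fold rise (1.40 ± 0.36, adjusted p = 0.0208). No TIM library overlapped the BM IMs of its strain. LN4K1 lung replicate 3 was again the highest, and the LN4K1 call was lost without DBA2 BM IM replicate 1 (adjusted p = 0.0846) or 2 (0.0907).

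*Bbc3* (chr7:16308393-16318205), which encodes PUMA, a target of p53, passed in both LN2E1 sites and not in LN4K1 lung. It was at 18.5, 13.3 and 16.7 CPM in FVB BM IMs, at 40.8, 31.0, 29.6, 25.2 and 36.3 CPM in primary tumors and at 40.6, 56.6, 58.1, 59.0 and 68.9 CPM in lymph nodes. It rose 1.99-fold (0.99 ± 0.18, adjusted p = 0.000986) and 3.50-fold (1.81 ± 0.21, adjusted p = 0.000106), without overlap. DBA2 BM IMs stood at 33.8, 38.9 and 50.6 CPM, within the range of TIMs, and LN4K1 lung TIMs at 33.5, 27.5, 47.0, 31.4 and 29.9 CPM. This difference was -0.36 ± 0.20 (adjusted p = 0.237) and became -0.50 (adjusted p = 0.0244) without LN4K1 lung replicate 3.

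*Bid* (chr6:120891930-120916853), whose product links death receptors and caspase 8 to the mitochondrion, fell in all 3 TIM groups. It was at 190, 188 and 174 CPM in FVB BM IMs, at 98.9, 79.5, 93.9, 80.6 and 88.7 CPM in primary tumors and at 100, 89.1, 81.04, 97.2 and 88.1 CPM in lymph nodes, 2.11-fold (-1.08 ± 0.09, adjusted p = 1.01e-05) and 2.02-fold lower (-1.01 ± 0.11, adjusted p = 7.8e-05). In DBA2 mice it was at 169, 198 and 183 CPM in BM IMs and at 137, 143, 153, 145 and 157 CPM in LN4K1 lung, 1.31-fold lower (-0.39 ± 0.10, adjusted p = 0.0193). The groups did not overlap, and the LN4K1 call was lost without DBA2 BM IM replicate 2 (adjusted p = 0.107) or 3 (0.0763). *Bcl2l13*, whose exons overlap those of *Bid* on the other strand, differed by 0.60 in primary tumors, 0.32 in lymph nodes and -0.59 in LN4K1 lung on the log2 scale, of which only the first passed. Cell cycle and neutrophil precursor genes fell in the same TIM groups, and their part in the lower *Bid* level was not tested.

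Levels were compared between genes per kilobase of all annotated exon bases of the gene. They depend on how reads shared with other genes were counted, which is not given. Windows shared with another gene were common in the *Bcl2a1* genes and *Bid* and absent in *Mcl1*, *Bcl2l1*, *Pmaip1* and *Bbc3*, so that levels of these 2 sets may not be counted alike. *Mcl1* had rank 1 in 4 groups, with a mean of 98.0 ± 75.9 CPM per kilobase (SD, n = 3) in FVB BM IMs and between 125 and 137 CPM per kilobase in the 3 TIM groups, and came after *Bid* in DBA2 BM IMs (43.1 ± 9.62 against 51.6 ± 3.97, SD, n = 3). *Bid* had rank 2 in FVB BM IMs (51.9 ± 2.46), rank 4 in primary tumors (24.9 ± 2.36, SD, n = 5) and LN4K1 lung (41.5 ± 2.23) and rank 7 in lymph nodes (25.7 ± 2.17). *Pmaip1* had rank 3 in BM IMs (17.4 ± 4.29 in FVB, 29.0 ± 7.0 in DBA2) and rank 2 in each TIM group (67.1 ± 8.91, 82.8 ± 15.9 and 80.6 ± 38.7). *Bcl2a1b* had ranks 6 and 8 in FVB and DBA2 BM IMs (2.68 ± 0.17 and 3.73 ± 0.41) and rank 3 in each TIM group (36.4 ± 4.32, 59.6 ± 16.1 and 67.6 ± 23.2). *Bcl2* had rank 10 in each TIM group, between 2.99 and 4.51 CPM per kilobase. Neighbours in this order often did not differ beyond their spread, such as *Bcl2a1a* (18.8 ± 3.20) and *Bcl2a1d* (18.03 ± 3.28) in primary tumors or *Bcl2l1* (12.5 ± 2.63) and *Bcl2l11* (11.3 ± 1.27) there. With the length of the longest transcript instead, *Bid* had rank 3 in primary tumors and rank 4 in lymph nodes and LN4K1 lung, and *Bcl2a1b* rank 4 in primary tumors.

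As a share of the summed level of the 6 prosurvival members, the 3 *Bcl2a1* genes made up a median of 8.27% in FVB BM IMs (3.49% to 10.9% over libraries) and 20.1% in DBA2 BM IMs (15.3% to 20.4%). In TIMs the median was 33.7% in primary tumors (29.2% to 46.9%), 41.6% in lymph nodes (35.1% to 62.8%) and 50.1% in LN4K1 lung (36.9% to 52.6%). TIM and BM IM libraries did not overlap in this share. *Mcl1* made up a median of 83.6% in FVB BM IMs, 58.6% in primary tumors and 52.8% in lymph nodes, and of 62.4% in DBA2 BM IMs and 44.2% in LN4K1 lung, with no overlap between the TIM and BM IM libraries of a strain. Among the 4 BH3-only members, *Bid* held a median of 66.5% in FVB and 52.8% in DBA2 BM IMs and 20.7%, 18.02% and 33.1% in primary tumors, lymph nodes and LN4K1 lung, and *Pmaip1* held 19.4%, 27.7%, 57.2%, 58.8% and 52.6%. *Bcl2l11* held between 5.80% and 11.8% in LN2E1 TIMs and between 1.76% and 4.05% in LN4K1 lung. With the length of the longest transcript instead, *Pmaip1* held a median of 44.0% in LN4K1 lung (36.5% to 60.2%) and *Bid* 40.7% (26.5% to 46.9%), which overlapped. These shares follow from the levels above, carry the same limit of shared reads and are descriptions with no test.

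**Figure D4:**
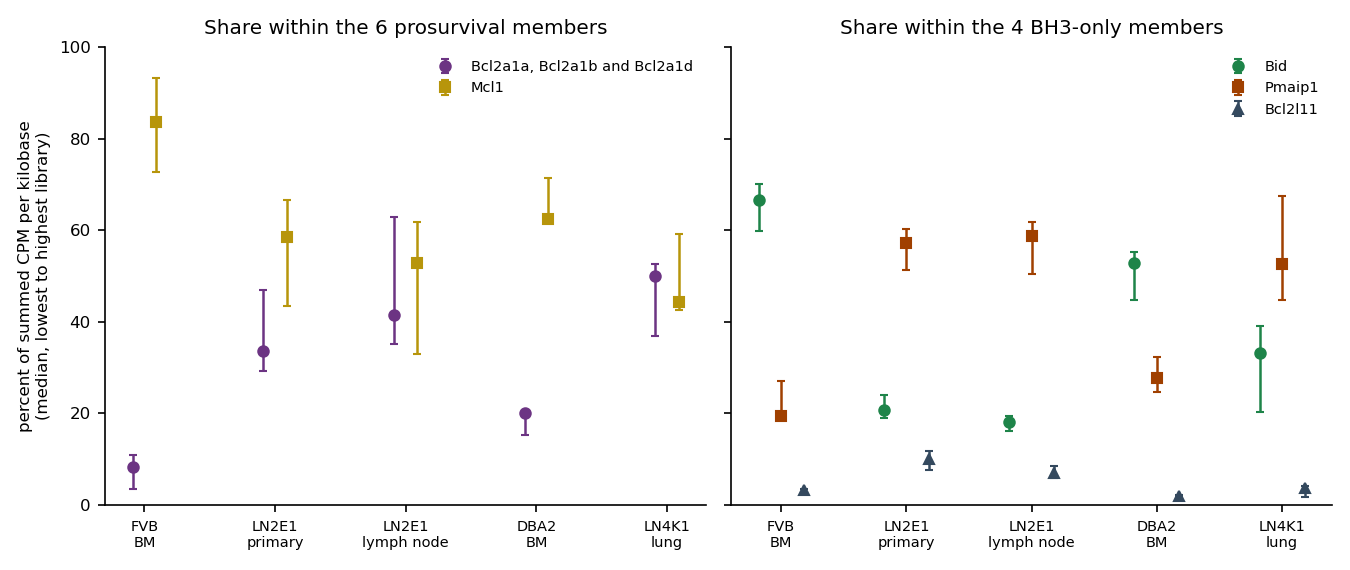
Share of the summed CPM per kilobase (percent, vertical axis) held by Bcl2a1 genes and Mcl1 among the 6 prosurvival members (left) and by Bid, Pmaip1 and Bcl2l11 among the 4 BH3-only members (right) in the 5 groups. Symbols are medians and bars run from the lowest to the highest library. With all annotated exon bases as the length, Bid holds the largest median BH3-only share in BM IMs and Pmaip1 in TIMs.

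Between the sites of the LN2E1 model, 4 members were higher in lymph node than in primary tumor TIMs and none lower, where 11.7% of 13488 genes passed, 6.15% higher and 5.55% lower. These were *Bbc3* (1.75-fold, 0.81 ± 0.16, adjusted p = 0.00824), *Bcl2a1d* (1.87-fold, 0.90 ± 0.21, adjusted p = 0.0202), *Bcl2a1b* (1.65-fold, 0.72 ± 0.18, adjusted p = 0.0222) and *Bcl2a1a* (1.71-fold, 0.77 ± 0.22, adjusted p = 0.0466). The libraries of the sites overlapped for each of the 10 members, where 14.4% of all genes did not overlap. Of these 4, 3 were *Bcl2a1* genes, whose reads cannot be split with certainty. With the *Bcl2a1* paralogs summed into 1 gene, 2 passed, *Bbc3* and the sum. The summed *Bcl2a1* reads were 1.72-fold higher in lymph nodes (adjusted p = 0.020). All 4 calls were lost with the replicate number as a block (adjusted p = 0.0585 for *Bbc3* to 0.125 for *Bcl2a1a*), though these numbers were not shown to pair libraries. The call for *Bbc3* held whichever library was left out. That for *Bcl2a1d* was lost without primary tumor replicate 2 or 4 (adjusted p = 0.0549 and 0.0668), that for *Bcl2a1b* without primary tumor replicate 1, 2, 3 or 4 (0.0504 to 0.0770), and that for *Bcl2a1a* without any 1 primary tumor library or lymph node replicate 2, 3 or 5 (0.0510 to 0.130) and with DESeq2's size factors (0.0556). *Bcl2* passed only without lymph node replicate 1 (0.82, adjusted p = 0.0204). *Bcl2l1* went the other way, at -0.48 ± 0.16 (adjusted p = 0.0829), and passed with DESeq2 (-0.44, adjusted p = 0.0219) and with all 5 groups in 1 fit (-0.49, adjusted p = 0.0285). The balance of all genes also moved with the tool, from 829 higher and 749 lower with edgeR to 1215 and 1863 with DESeq2.

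The BM IMs of the 2 strains differed in 4 members, all higher in DBA2, where 21.1% of 12905 genes passed, 11.5% higher and 9.57% lower. *Bbc3* was 2.58-fold higher (1.37 ± 0.20, adjusted p = 0.00282) and *Bcl2* 1.92-fold higher (0.94 ± 0.14, adjusted p = 0.00295). *Bcl2a1a* was 2.27-fold higher (1.18 ± 0.33, adjusted p = 0.0363) and *Pmaip1* 1.69-fold higher (0.76 ± 0.22, adjusted p = 0.0447). Leaving out any library but FVB BM IM replicate 3 ended these last calls, with adjusted p between 0.0762 and 0.102 for *Bcl2a1a* and between 0.0656 and 0.154 for *Pmaip1*. With all 5 groups in 1 fit, *Bcl2* (adjusted p = 0.0827) and *Pmaip1* (0.136) did not pass. *Mcl1* was lower by -1.15 ± 0.49 (adjusted p = 0.127) and passed without FVB BM IM replicate 3 (-1.55, adjusted p = 0.0452), as did *Bcl2l1* (0.44, adjusted p = 0.0272). *Bcl2a1d* (1.07 ± 0.34, adjusted p = 0.0576) passed with DESeq2 (0.82, adjusted p = 0.0216). *Bcl2l11* (-0.27 ± 0.21, adjusted p = 0.384) and *Bid* (0.02 ± 0.09, adjusted p = 0.917) did not pass, and their libraries overlapped. The summed *Bcl2a1* reads were 1.87-fold higher in DBA2 BM IMs (adjusted p = 0.0160).

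Whether the change from BM IMs to TIMs differed between models was tested as an interaction, the log2 fold change in an LN2E1 site minus that in LN4K1 lung. For primary tumors 5 members passed, 4 with the higher value in LN2E1 and *Bid* with the lower, where 26.5% of 15182 genes passed, 13.2% and 13.3% in these directions. For lymph nodes 5 members passed, again 4 and *Bid*, where 15.4% of 14450 genes passed, 8.14% and 7.25%. *Bcl2l11* (1.25 ± 0.22, adjusted p = 0.00117 for primary tumors, and 1.10 ± 0.24, adjusted p = 0.00607 for lymph nodes) and *Bid* (-0.67 ± 0.13, adjusted p = 0.00203, and -0.64 ± 0.14, adjusted p = 0.00589) differed from LN4K1 in both sites and whichever library was left out. For these genes the BM IM levels of the strains overlapped and the TIM levels did not. *Bbc3* also differed in both (1.36 ± 0.27, adjusted p = 0.00279, and 2.14 ± 0.29, adjusted p = 0.000172), but here the BM IMs stood apart, between 13.3 and 18.5 CPM in FVB and between 33.8 and 50.6 CPM in DBA2, and the TIMs of the models overlapped. The same held for *Bcl2* (0.84 ± 0.29, adjusted p = 0.0424, and 1.41 ± 0.41, adjusted p = 0.0285), with BM IMs between 16.1 and 17.8 CPM in FVB and between 29.7 and 35.3 CPM in DBA2.

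The *Bcl2* difference for primary tumors was lost in 10 of 16 leave-one-out fits (adjusted p = 0.0501 to 0.107), those without any 1 BM IM library, without LN4K1 lung replicate 1, 2 or 5 or without primary tumor replicate 2. It was also lost with a filter of 1 count in total (0.0653), with all 5 groups in 1 fit (0.199) and with the paralogs summed (0.0570). That for lymph nodes was lost in 6 of 16 (0.0517 to 0.0791), those without FVB BM IM replicate 1 or 2, any 1 DBA2 BM IM library or LN4K1 lung replicate 5. *Bcl2l1* differed for primary tumors (0.99 ± 0.23, adjusted p = 0.00597), whichever library was left out, and was 0.49 ± 0.23 (adjusted p = 0.166) for lymph nodes. *Bcl2a1d* differed for lymph nodes (1.40 ± 0.45, adjusted p = 0.0434), a call lost in 12 of 16 fits (0.0519 to 0.106) that left out any 1 BM IM library, LN4K1 lung replicate 1, 2, 4 or 5 or lymph node replicate 2 or 3, and lost with a filter of 1 count in total (0.0510). For the summed *Bcl2a1* reads the difference was 0.09 ± 0.31 (adjusted p = 0.885) for primary tumors and 0.92 ± 0.36 (adjusted p = 0.0986) for lymph nodes, so that a different rise in the models was not detected for the paralogs together. *Pmaip1* (0.55 ± 0.41, adjusted p = 0.345, and 0.83 ± 0.42, adjusted p = 0.201) passed for both sites without LN4K1 lung replicate 3 (0.85, adjusted p = 0.0425, and 1.17, adjusted p = 0.0231), the library with the most *Pmaip1* reads, as did *Bcl2a1a* for lymph nodes (1.19 ± 0.42, adjusted p = 0.0681, and 1.45, adjusted p = 0.0173 without it), which also passed without lymph node replicate 4 (1.33, adjusted p = 0.0375), with all 5 groups in 1 fit (1.14, adjusted p = 0.0470) and with DESeq2 (1.23, adjusted p = 0.0283). *Mcl1* was at -1.20 ± 0.62 (adjusted p = 0.162) and -1.09 ± 0.59 (adjusted p = 0.236), and for primary tumors passed without FVB BM IM replicate 3 (-1.59, adjusted p = 0.0429).

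**Figure D5:**
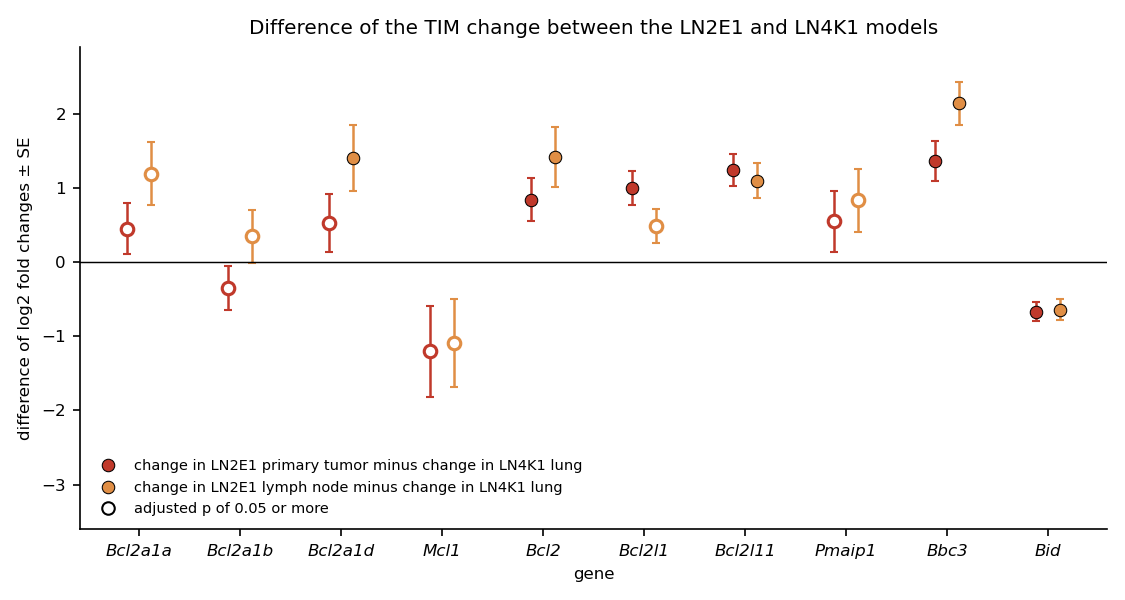
Difference of log2 fold changes with its standard error (vertical axis) for each of the 10 members (horizontal axis), as the change in LN2E1 primary tumors or lymph nodes against FVB BM IMs minus the change in LN4K1 lung against DBA2 BM IMs. Filled points have an adjusted p under 0.05 and open points do not. Bcl2l11, Bbc3 and Bcl2 lie above 0 and Bid below 0 at both sites with filled points.

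Of 16 other BCL2 family genes, 13 were tested in primary tumors, with 4 higher and 5 lower, 14 in lymph nodes, with 4 higher and 2 lower, and 12 in LN4K1 lung, with 3 higher and 0 lower, near the 61.9%, 37.4% and 24.9% of all genes that passed. Their median log2 fold changes were -0.28, -0.14 and 0.60. The effector *Bax* was between 145 and 184 CPM in FVB BM IMs and between 126 and 158 CPM in primary tumors, a small fall (-0.28 ± 0.11, adjusted p = 0.0481), and its differences were 0.09 in lymph nodes (adjusted p = 0.728) and 0.47 in LN4K1 lung (adjusted p = 0.106). The effector *Bak1* was low, between 2.08 and 12.5 CPM over all libraries, and fell in primary tumors (-0.74 ± 0.25, adjusted p = 0.0277), with -0.25 (adjusted p = 0.695) and -0.28 (adjusted p = 0.722) elsewhere. *Bnip3*, a mitophagy gene induced by low oxygen, was the only one of the 16 past both DEG thresholds, with a rise of 3.35-fold in primary tumors (1.74 ± 0.17) and 6.77-fold in lymph nodes (2.76 ± 0.22). It rose 2.05-fold in LN4K1 lung (1.04 ± 0.13, adjusted p = 0.000384). The paralog *Bcl2a1c* was at most 0.285 CPM in every library and near the limit of 3 counts in BM IMs, so that no fold change is given for it.

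Of 21 genes of the apoptosome, caspases and inhibitors of apoptosis, all tested, 6 were higher and 7 lower in primary tumors, 6 and 2 in lymph nodes, and 6 and 3 in LN4K1 lung, with medians of 0.08, 0.13 and -0.08. These counts compare with 61.9%, 37.4% and 24.9% of all genes, so that in the LN2E1 sites they were at the background. *Birc5* (survivin), which also serves in cell division, was between 205 and 277 CPM in BM IMs and between 0.689 and 9.96 CPM in TIMs, with log2 fold changes of -5.22 in primary tumors, -6.34 in lymph nodes and -5.50 in LN4K1 lung, beside the fall of the cell cycle genes given above. *Casp6* rose 1.97-fold in primary tumors (0.98 ± 0.13), 2.07-fold in lymph nodes (1.05 ± 0.18) and 3.57-fold in LN4K1 lung (1.84 ± 0.15). Of 21 regulators of BH3-only genes and of *Mcl1*, 20 were in the table and 18 tested, with 11 higher and 2 lower in primary tumors, 7 and 1 in lymph nodes, and 4 and 2 in LN4K1 lung, with medians of 0.55, 0.44 and 0.41, beside the same shares of all genes. *Hif1a*, the oxygen-sensing factor, rose 6.28-fold in primary tumors, 5.65-fold in lymph nodes and 2.57-fold in LN4K1 lung, and the p53 target *Cdkn1a* 3.48-fold, 3.19-fold and 2.19-fold. *Stat3* rose 3.74-fold and 3.93-fold in the LN2E1 sites and was at 0.80 ± 0.27 in LN4K1 lung (adjusted p = 0.0568). *Trp53*, which drives *Bbc3* and *Pmaip1* after DNA damage, fell in primary tumors (-1.02 ± 0.11), in lymph nodes (-1.28 ± 0.17) and in LN4K1 lung (-0.68 ± 0.15).

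Over the 21 libraries and 8006 genes with a mean log2 CPM above 3, genes among those whose log2 CPM was most like that of the summed *Bcl2a1a*, *Bcl2a1b* and *Bcl2a1d* reads were *Plac8* (Pearson r 0.983), *Casp4* (0.973), *Lifr* (0.967) and *Filip1l* (0.965). For *Bcl2l11* they were *Slc2a1* (0.982), *Smox* (0.981), *Ifitm1* (0.974), *Tnfrsf12a* (0.973) and *Chd7* (0.973). For *Bcl2* the values were lower, with *Cacna1d* at 0.808, *Rc3h2* at 0.777, *Rassf4* at 0.771 and *Ccdc50* at 0.767. The libraries form 5 groups, so these correlations describe a pattern shared over groups of related libraries and carry no test.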

How the data were processed

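RNA from 21 libraries of sorted IMs (CD45+CD11b+Ly6C hi Ly6G-, after a monocyte isolation kit) was analysed, grouped by the sample labels. The paper also gates IMs as negative for Siglec-F. In lung tissue this gate was used to exclude alveolar macrophages or eosinophils. The authors amplified cDNA with a SMART kit, made Nextera XT libraries without strand, trimmed adapters with BBDuk, mapped reads to mm10 with BBMap, sorted them with SAMtools 1.8 and assigned them to genes with featureCounts 1.5.2 (versions from the submitters' processing notes). Settings for reads with several hits and the annotation are not given in the sources used here. The deposited values are raw read counts per symbol, none normalized. From these counts, CPM were scaled with TMM factors over all libraries. Each comparison was fitted on its own groups with edgeR 4.0.16 in R 4.3.3 (filterByExpr at min.count 10 and min.total.count 15, robust quasi-likelihood test, Benjamini-Hochberg adjustment over all genes tested). The interactions used the 4 groups involved. A member passed below an adjusted p of 0.05, and a DEG had to lie below 0.0001 with a log2 fold change beyond 1 in size. Standard errors are the absolute log2 fold change divided by the square root of F and are approximate. No library was dropped.

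Alternatives were DESeq2's size factors, a filter of 1 count in total, all 5 groups in 1 fit, the replicate number as a block, DESeq2 1.42.0, the *Bcl2a1* paralogs summed, another gene length, and leaving out each library. The scripts were tested on simulated data. Named genes were the 10 members, and of 3 lists of related genes up to 3 in each direction with the largest change past both DEG thresholds, with *Bax*, *Bak1* and *Bcl2a1c* always, and the 5 genes most like each of 3 profiles, of which some are not reported here. The members, lists, marker genes and tests were chosen with earlier results of these data known. Gene locations and exon lengths came from GENCODE vM21 and were matched by symbol. Sequence tables from RefSeq gave promoters. *Adgre1*, *Chil3* and other listed symbols absent from the table were not analysed here. A limit of 3 counts covers counting error only.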

Additional observations from a re-analysis of the deposited data

Results flagged for a closer look

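The change from BM IMs to TIMs differed between the models, by the interaction term, in 10 results. As the log2 fold change in LN2E1 primary tumors minus that in LN4K1 lung, the differences were 0.84 for *Bcl2*, 0.99 for *Bcl2l1*, 1.25 for *Bcl2l11*, 1.36 for *Bbc3* and -0.67 for *Bid*. With lymph nodes in place of primary tumors they were 1.40 for *Bcl2a1d*, 1.41 for *Bcl2*, 1.10 for *Bcl2l11*, 2.14 for *Bbc3* and -0.64 for *Bid*. Line, strain, route and tissue cannot be told apart in these differences. For *Bcl2l11* and *Bid* the TIM libraries of the models did not overlap, and for *Bbc3* and *Bcl2* it was the BM IM libraries of the strains that did not. In the CPM of the 10 members, no library stood out by Dixon's test in any of 30 sets of 5 values, 1 for each member in each TIM group.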

How the results depend on the processing

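Of 1119 refitted results on single members, 1011 kept their direction and their side of an adjusted p of 0.05, 86 no longer passed, 16 newly passed and 6 reversed. The reversals were small: *Mcl1* in primary tumors against FVB BM IMs was -0.056 without FVB BM IM replicate 3, within leave-one-out values of -0.056 to 1.17. For lymph node against primary tumor TIMs it was -0.0042 without primary tumor replicate 1 and -0.046 without lymph node replicate 1, within -0.046 to 0.35. *Bid* between the strains was -0.0083 with all 5 groups in 1 fit, -0.0074 without FVB BM IM replicate 3 and -0.038 without DBA2 BM IM replicate 2, within -0.038 to 0.065. The count of members that passed for lymph node against primary tumor TIMs was between 1 and 5 when a library was left out. With the paralogs summed into 1 gene it was 2, the sum and *Bbc3*, because 3 passing genes became 1. Here no call was lost. Between strains it was 2 with all 5 groups in 1 fit and between 2 and 6 without a library. It was between 4 and 8 for LN4K1 lung and between 3 and 7 for the lymph node interaction without a library. Calls over all genes varied as well. Without a library, 1117 to 2744 genes were higher and 1015 to 2292 lower in LN4K1 lung. For lymph node against primary tumor TIMs, 411 to 1031 were higher and 478 to 1225 lower. Members past both DEG thresholds in LN4K1 lung numbered 2 with a filter of 1 count in total, 3 with all 5 groups in 1 fit and 4 with DESeq2. Without a library they numbered between 0 and 3 there and between 1 and 8 in lymph nodes. Among all genes, DEGs in LN4K1 lung numbered 506 of 17612, 797 of 15357 and 1565 of 14668 in these 3 settings. Without a library they numbered between 115 and 840 there and between 307 and 977 in lymph nodes.

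Replicate numbers in the labels were not shown to pair libraries. Same-numbered libraries deviated together by between -0.30 and 0.30 (correlation of deviations from group means), and only in the lymph node comparison with BM IMs did each of 3 numbers correlate best with its own (0.28, 0.08 and 0.30). With the replicate number as a block, 9 members passed in primary tumors, 7 in lymph nodes and 5 in LN4K1 lung. Calls over all genes fell too, from 4855 higher and 4170 lower to 3360 and 2594 in primary tumors. In lymph nodes they fell from 2685 and 2284 to 2125 and 1441, and in LN4K1 lung from 1892 and 1497 to 691 and 633. For lymph node against primary tumor TIMs, 0 members passed (4 at an unadjusted p under 0.05, all 4 that passed without the block). Calls over all genes fell there from 829 and 749 to 245 and 288. Between strains 3 members passed, with 4 for the primary tumor interaction and 3 for the lymph node interaction. Over all genes these gave 1409 and 983, 1560 and 1555, and 849 and 672. Past both DEG thresholds were 0 members in primary tumors, in lymph nodes or in LN4K1 lung, where 0 of all genes tested were in edgeR's fits. Calls lost with the block were *Bcl2* (0.97, adjusted p = 0.161 by edgeR) and *Bcl2l1* (0.59, 0.104) in lymph nodes, *Bcl2l11* (1.001, 0.0770) and *Bid* (-0.41, 0.18) in LN4K1 lung, *Bcl2a1a* between strains (0.0563), *Bcl2* in the primary tumor (0.0811) and lymph node (0.0557) interactions and *Bcl2a1d* in the latter (0.0826). The cause of these changes was not tested.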
